A study of Mus musculus with 3 samples.

Results

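The 43 genes described here encode the proteins that copy DNA and the factors that open and supply S phase, the cell cycle phase in which DNA is copied. They were taken by gene symbol, each from a list of replication and S-phase genes and each represented by its brightest named probe set, out of 18193 genes named on the array. The 43 symbols were all found, and 42 of these genes gave a signal above the floor of 75.4, the median of all non-control signals, on at least 1 array. Their transcripts were compared between 3 populations of endosteal cells, the cells lining the inner bone surface, from femur and tibia of C57BL/6 mice. Bone fragments were digested with collagenase, and cells without CD45 (blood cells), CD31 (vessel lining) and Ter119 (red cells) were separated by 2 surface proteins, the cell adhesion protein ALCAM and the progenitor marker Sca-1. The groups were ALCAM+ Sca-1- cells (ALCAM+ below), ALCAM- Sca-1+ cells (Sca-1+ below) and ALCAM- Sca-1- cells (marker-negative below). No treatment, age or number of mice is given in the sources used here. Each population was hybridised to 1 array, so no difference has a replicate check, no test between groups was possible, and higher or lower with a count refers to a rule of size, at least 4-fold unless another fold is named.

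Replication is prepared in G1, when the origin recognition complex, Cdc6 and Cdt1 load the MCM2-7 helicase onto DNA, and geminin then blocks reloading. Mcm10, Cdc45 and the GINS complex turn the loaded helicase into a running one, primase and polymerase alpha start each strand, and polymerases epsilon and delta extend it on the PCNA clamp. Cyclin E and the E2F transcription factors open this programme, and most of its genes are silent or low in cells that have left the cycle. In bone, growth plate cartilage cells and blood-forming precursors are among the cells known to divide.

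E2F factors bind short GC-rich elements near the start sites of these genes, so the promoters of MCM genes are shown first, as the helicase genes were lower together in both marker-positive populations. RefSeq windows (GRCm38.p6) of 300 bases, from 250 bases before to 50 after a start site, were held for 35 of the 43 genes. Ccne2, Gins1, Gins2, Gmnn, Mcm4, Pole, Prim2 and Rfc2 had no entry. The letters searched on both strands were TTTCCCGC, TTTCGCGC, TTTGCCGC and TTTGGCGC, which together make up the E2F consensus and can overlap each other. Capitals mark these matches. The windows lie at chr1:20820263-20820562 (Mcm3, minus strand), chr8:75109259-75109558 (Mcm5, plus strand), chr1:128359656-128359955 (Mcm6, minus strand), chr5:138171834-138172133 (Mcm7, minus strand), chr6:88898731-88899030 (Mcm2, minus strand) and chr11:117825965-117826264 (Tk1, minus strand), each written 5′ to 3′ on the strand of its gene.
Mcm3: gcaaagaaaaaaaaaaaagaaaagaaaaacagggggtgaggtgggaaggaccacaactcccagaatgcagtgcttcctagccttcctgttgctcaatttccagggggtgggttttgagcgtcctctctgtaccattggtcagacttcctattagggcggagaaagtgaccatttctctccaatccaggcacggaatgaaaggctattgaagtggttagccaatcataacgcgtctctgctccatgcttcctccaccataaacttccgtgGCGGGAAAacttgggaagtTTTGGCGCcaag
Mcm5: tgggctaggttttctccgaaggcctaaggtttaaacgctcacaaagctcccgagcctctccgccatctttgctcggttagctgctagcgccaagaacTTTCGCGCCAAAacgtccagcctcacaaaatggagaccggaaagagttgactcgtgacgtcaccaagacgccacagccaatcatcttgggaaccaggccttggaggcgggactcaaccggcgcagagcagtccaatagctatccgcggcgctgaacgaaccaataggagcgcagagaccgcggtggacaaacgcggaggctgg
Mcm6: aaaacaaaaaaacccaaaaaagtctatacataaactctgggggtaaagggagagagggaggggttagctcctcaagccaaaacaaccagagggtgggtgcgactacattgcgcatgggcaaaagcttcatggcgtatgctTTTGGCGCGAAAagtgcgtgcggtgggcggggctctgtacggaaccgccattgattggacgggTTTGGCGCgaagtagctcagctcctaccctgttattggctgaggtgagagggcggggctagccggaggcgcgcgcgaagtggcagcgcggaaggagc
Mcm7: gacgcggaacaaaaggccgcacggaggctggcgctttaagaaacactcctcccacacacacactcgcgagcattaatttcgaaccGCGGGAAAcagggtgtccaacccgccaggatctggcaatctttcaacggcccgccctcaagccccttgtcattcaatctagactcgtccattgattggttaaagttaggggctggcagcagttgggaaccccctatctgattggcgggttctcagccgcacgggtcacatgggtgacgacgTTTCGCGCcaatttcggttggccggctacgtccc
Mcm2: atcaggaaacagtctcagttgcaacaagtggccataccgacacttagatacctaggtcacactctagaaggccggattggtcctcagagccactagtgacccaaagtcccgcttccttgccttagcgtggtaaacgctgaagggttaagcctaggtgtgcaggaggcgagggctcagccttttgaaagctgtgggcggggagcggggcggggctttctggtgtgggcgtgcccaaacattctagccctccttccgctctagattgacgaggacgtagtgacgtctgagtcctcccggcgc
Tk1: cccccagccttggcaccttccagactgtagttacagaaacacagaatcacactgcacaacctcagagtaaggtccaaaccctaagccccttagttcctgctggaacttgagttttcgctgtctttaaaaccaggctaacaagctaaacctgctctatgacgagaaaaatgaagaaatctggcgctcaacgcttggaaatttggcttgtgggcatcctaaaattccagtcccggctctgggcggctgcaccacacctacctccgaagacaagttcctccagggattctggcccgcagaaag
The windows of Mcm3, Mcm5 and Mcm7 held 2 matches each and that of Mcm6 held 3. In Mcm5 the matches overlapped on opposite strands, at bases -153 to -146 and -149 to -142 from the start site. In Mcm3 both lay just downstream of the start, at 20 to 27 and 39 to 46. Mcm2 and Tk1, shown for contrast, held none of these letters in the window, which says nothing about binding elsewhere. Tk1 was the gene outside the MCM family with the largest difference between ALCAM+ and marker-negative cells among those with a window.

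Of the 35 genes with a window, 13 (37.1%) held an E2F match, against 4.58% of the 10215 measured genes with a window; of all 32851 windows in the table, 2.26% held one. The 13 were Cdc6, Cdt1, Lig1, Mcm3, Mcm5, Mcm6, Mcm7, Orc1, Pola1, Pold1, Pole2, Rfc3 and Uhrf1. Of the 36 mitosis genes with a window, a list that covers spindle, kinetochore and mitotic kinase genes, 2 (5.56%) held an E2F match, and of 35 other replication genes 11 (31.4%) did. The order turned for the CHR element, TTTGAA on either strand, which is known from genes of late cell cycle phases: 24 (66.7%) of the mitosis genes held it, against 4 (11.4%) of the 35 replication genes and 14.3% of measured genes. The NF-Y box, CCAAT on either strand, was held by 21 (60%) of the replication genes, 27 (75%) of the mitosis genes and 42.5% of measured genes. Within the replication genes the median log2 difference of ALCAM+ from marker-negative cells was -2.36 for the 13 with an E2F match and -2.23 for the 21 measured genes with a window and no match. For Sca-1+ cells the medians were -2.03 and -1.79. No test of these gaps was made. The shares describe sequence alone, and the lists were not matched on base composition.

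**Figure D1:**
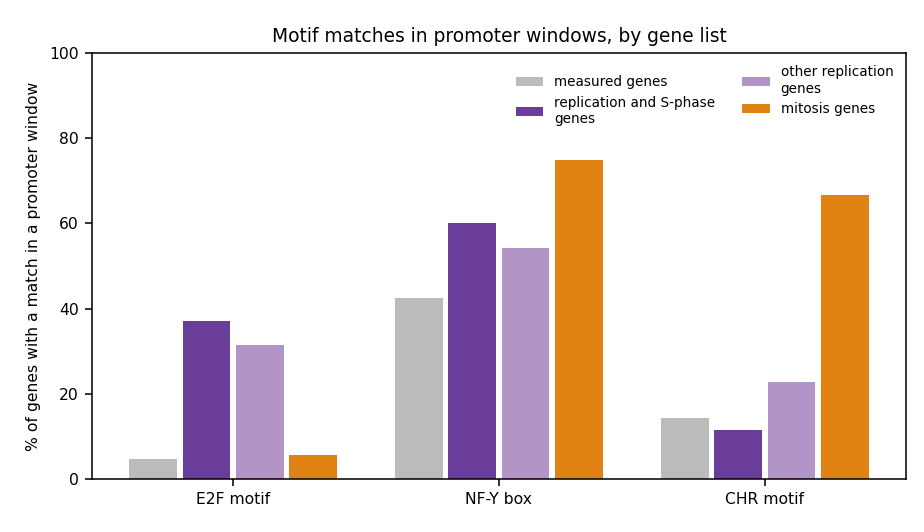
Bars give the percentage of genes with at least 1 match in a RefSeq promoter window (y axis) for 3 short elements, in measured genes, the replication and S-phase genes, other replication genes and mitosis genes. The E2F motif was held by 37.1% of the replication and S-phase genes and 5.56% of the mitosis genes, the CHR motif by 11.4% and 66.7%.

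The 3 arrays had the same 2% trimmed mean of 500, and 48.9% to 51.4% of probe sets lay above the floor. The 3' to 5' signal ratio of Actb ran from 2.55 to 2.77 and that of Gapdh from 3.75 to 3.96. Alcam gave 267.7 (ALCAM+), 41.1 (Sca-1+) and 36.3 (marker-negative), above the floor in the population sorted for it alone. The Sca-1 gene was not analysed here. Ptprc, the CD45 gene, gave 11.6 (ALCAM+), 163.2 (Sca-1+) and 159.4 (marker-negative), and Pecam1, the CD31 gene, stayed below the floor with 7.0, 5.2 and 9.1. Of 19 named erythroid markers, 18 were above the floor in marker-negative cells, 6 in ALCAM+ cells and 4 in Sca-1+ cells, with summed signals of 48899, 5075 and 1159. The 10 chondrocyte markers summed to 251158 (ALCAM+), 6079 (Sca-1+) and 228654 (marker-negative). Car2, Hemgn and Tfrc had the highest marker-negative signals of the erythroid list, 13751, 5892 and 5817.5. Hba-a1, an adult globin gene named after its values were seen, was below the floor on each array by its only probe set with 1 symbol. Probe sets with several symbols were not used, so this does not show that globin RNA was absent. Pan-haematopoietic markers were above the floor for 6 of 9 genes in marker-negative cells, 1 in ALCAM+ and 3 in Sca-1+ cells. The 6 named osteoblast markers summed to 128893 (ALCAM+), 8600 (Sca-1+) and 45462.5 (marker-negative). The marker-negative array thus carried erythroid transcripts beside cartilage and osteoblast ones, after depletion of Ter119+ cells. Markers of neutrophils and their precursors were above the floor for 11 of 13 genes in Sca-1+ cells, 8 in marker-negative cells and 2 in ALCAM+ cells, with summed signals of 16923, 3993 and 543.3. Within that list S100a8 and Ngp, late granulocyte genes, were highest in Sca-1+ cells, at 4900.5 and 4537.5. The precursor genes Mpo, Prtn3 and Elane, named after their values were seen, were highest in marker-negative cells like the replication genes, at 1355, 530.5 and 483.0, against 25.2, 22.3 and 37.3 in ALCAM+ and 91.4, 109.7 and 63.5 in Sca-1+ cells. The part of these transcripts in the results on replication genes was not tested.

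The signal in marker-negative cells was the highest of the 3 for each of the 42 measured genes, a position that 33.2% of all 12643 measured genes held. Between ALCAM+ and marker-negative cells, 27 of the 42 were at least 4-fold lower in ALCAM+ cells and 0 higher, where 2.67% of all measured genes were that much lower. The median log2 difference was -2.35, against -0.03 over all measured genes, and the 42 ran from -4.47 for Mcm5 to -0.69 for Rfc2. Between Sca-1+ and marker-negative cells, 20 of the 42 were at least 4-fold lower in Sca-1+ cells and 0 higher, with 4.71% of all genes lower by that rule. Here the median was -1.97, against 0 over all genes, and the range ran from -4.27 for Tk1, measured against the floor, to -0.31 for Rpa1. Both comparisons use the same marker-negative array, so they are not independent of each other. In such bulk samples fewer dividing cells and less RNA of these genes per cell cannot be told apart. Erythroid markers were lower too, at least 4-fold in 15 of 18 measured cases in ALCAM+ cells and 14 of 18 in Sca-1+ cells. Of these 18, 11 were under the floor in both marker-positive populations and could only be lower. The part of the erythroid transcripts in the result was not tested. Of the 42 genes, 41 were above the floor in another population too, and Tk1 alone passed through its marker-negative signal.

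**Figure D2:**
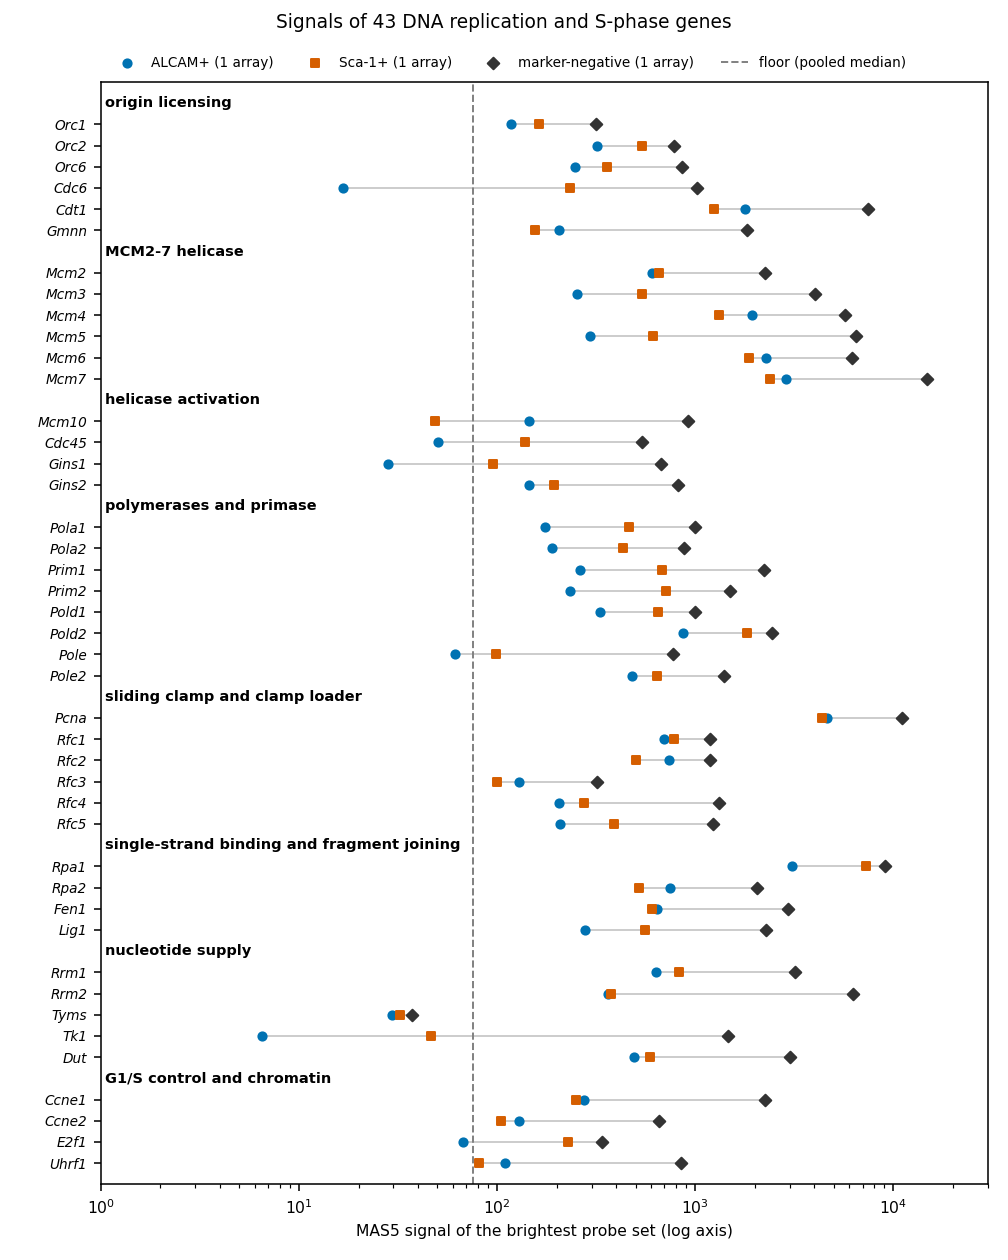
Signals of the 43 genes on a log axis (x), 1 row per gene grouped by role, with a circle for ALCAM+, a square for Sca-1+ and a diamond for marker-negative cells (1 array each); the dashed line is the floor of 75.4. The diamond lies farthest right in every row, and Tyms stays left of the floor with all 3 symbols.

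Where 3 signals are given without labels, they stand for ALCAM+, Sca-1+ and marker-negative in that order. Among the licensing genes, the loading factors and their inhibitor differed most. Cdc6, the ATPase that joins the origin complex to load the helicase, gave 16.6 (ALCAM+), 233.1 (Sca-1+) and 1026 (marker-negative). It was therefore graded over the 3 arrays, at least 13.6-fold lower in ALCAM+ and 4.40-fold lower in Sca-1+ cells, each against marker-negative cells. Cdt1, its partner in loading, gave 1778, 1247 and 7466 in the same order. Gmnn, which encodes geminin, the inhibitor of Cdt1, gave 206.1, 154.8 and 1821. The inhibitor was 8.83-fold lower in ALCAM+ and 11.8-fold lower in Sca-1+ cells, and the factor it binds 4.20-fold and 5.99-fold, so loader and inhibitor were both highest in marker-negative cells.

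The subunits of the origin recognition complex differed less. Orc1, the subunit that comes and goes with the cell cycle, gave 117.5 (ALCAM+), 162.5 (Sca-1+) and 315.0 (marker-negative). Orc2, a core subunit, gave 321.0, 539.0 and 781.8. Orc6, a small subunit, gave 247.0, 359.6 and 853.4. All of these differences from marker-negative cells were under 4-fold, the largest being 3.46-fold for Orc6 in ALCAM+ cells. The other probe set of Orc1 was above the floor in marker-negative cells alone, with 294.9 there.

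The MCM2-7 genes, whose products form the ring of the replicative helicase in equal numbers, differed by unequal amounts, with Mcm5 and Mcm3 farthest apart by their brightest probe sets. Mcm5 gave 293.5 (ALCAM+), 610.6 (Sca-1+) and 6513 (marker-negative), 22.2-fold and 10.7-fold lower in the first and second population. Mcm3 gave 253.6, 539.3 and 4012, which is 15.8-fold and 7.44-fold lower. Sca-1+ cells lay 2.13-fold (Mcm3) and 2.08-fold (Mcm5) above ALCAM+ cells and far below marker-negative cells.

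The brightest probe sets of the remaining helicase genes were well above the floor in every population. Mcm7 gave 2877 (ALCAM+), 2377 (Sca-1+) and 14747 (marker-negative), 5.13-fold and 6.20-fold lower than in the last. Mcm4 gave 1932.5, 1321 and 5691, Mcm6 gave 2284, 1863 and 6190.3, and Mcm2 gave 603.9, 654.4 and 2259. For these 3 the differences from marker-negative cells lay between 2.71-fold and 4.31-fold. The second probe set of Mcm2 showed a wider gap than the brightest one, with 182.6, 210.6 and 2482. All MCM2-7 genes but Mcm6 were represented by a probe set of a kind that can match related transcripts (_s_at or _x_at). With the brightest probe set of another kind, the log2 difference of ALCAM+ from marker-negative cells was -3.76 for Mcm2, -3.04 for Mcm3, -1.76 for Mcm4, -4.01 for Mcm5 and -2.64 for Mcm7, so that Mcm2 then lay beyond Mcm3. In Sca-1+ cells these values were -3.56, -3.02, -1.92, -2.93 and -3.26. Each stayed below 0, but which helicase genes differed most depended on the probe set.

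The genes that activate the helicase were low or below the floor outside marker-negative cells. Cdc45, part of the running helicase, gave 50.4 (ALCAM+), 138.5 (Sca-1+) and 541.8 (marker-negative). Gins1, a GINS subunit, gave 28.2, 95.7 and 674.6, and Gins2, another, gave 144.7, 194.1 and 815.4. Mcm10, which helps to start unwinding and is no part of the MCM2-7 ring, gave 144.2, 48.8 and 924.6. ALCAM+ cells were thus at least 4-fold below marker-negative cells in 4 of 4 of these genes, by 5.64-fold for Gins2 up to at least 8.95-fold for Gins1. In Sca-1+ cells 3 of 4 were, with Cdc45 at 3.91-fold. Of all measured genes 2.67% and 4.71% were that much lower. The calls depended on the probe set. By second probe sets the log2 difference in ALCAM+ cells was -1.91 for Gins2, -0.79 for Gins1 and -0.004 for Mcm10, the last 2 against the floor. In Sca-1+ cells Gins2 had -2.30 and the others the same values. The second probe set of Cdc45 was below the floor on each array.

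DNA synthesis genes separated the marker-positive populations most. Prim1, the catalytic primase subunit, gave 262.1 (ALCAM+), 683.3 (Sca-1+) and 2230 (marker-negative). Prim2, the large primase subunit, gave 232.6, 712.0 and 1502.5. Pola1, the catalytic subunit of polymerase alpha, gave 175.1, 466.0 and 998.1. In each, Sca-1+ cells stood between the other populations. Pola2, the accessory subunit of polymerase alpha, gave 188.3, 433.1 and 882.6. These 4 genes were 4.69-fold to 8.51-fold lower in ALCAM+ than in marker-negative cells, but 2.04-fold to 3.26-fold lower in Sca-1+ cells.

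Polymerase delta, which copies the lagging strand, was graded in the same way. Pold1, its catalytic subunit, gave 332.7 (ALCAM+), 651.8 (Sca-1+) and 1002 (marker-negative), and Pold2, its second subunit, gave 872.5, 1829 and 2440.1. In Sca-1+ cells these lay 1.54-fold and 1.33-fold below marker-negative cells, among the smallest differences of the 42. Pole, the catalytic subunit of the leading strand polymerase epsilon, behaved otherwise, with 61.1, 99.2 and 775.3. It was at least 10.3-fold lower in ALCAM+ and 7.82-fold lower in Sca-1+ cells. Its partner subunit Pole2 gave 480.7, 645.1 and 1395.

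The sliding clamp gene Pcna was bright everywhere, with 4626 (ALCAM+), 4365 (Sca-1+) and 11023.5 (marker-negative). It was 2.38-fold and 2.53-fold below marker-negative cells, although its product is a standard marker of S phase. PCNA also serves DNA repair. The clamp loader genes ranged more widely. Rfc4 gave 205.4, 275.1 and 1312 and Rfc5 206.8, 389.0 and 1236, which is 6.39-fold and 5.98-fold lower in ALCAM+ than in marker-negative cells. Rfc1, the large loader subunit, gave 700.0, 780.7 and 1183, Rfc2 gave 737.2, 500.5 and 1189.9, and Rfc3 gave 128.8, 100.3 and 321.3. Rfc1 and Rfc2 differed by under 2-fold between ALCAM+ and marker-negative cells, the only measured members to do so.

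Rpa1, the large subunit of the complex that coats single-stranded DNA, gave 3082 (ALCAM+), 7312 (Sca-1+) and 9038 (marker-negative), so that Sca-1+ cells were within 1.24-fold of marker-negative cells. Its other probe set gave 734.2, 1857 and 2409, in the same order. Rpa2, the middle subunit, gave 746.3, 521.0 and 2050.5, with ALCAM+ above Sca-1+ cells on the deposited scale, a sign that turns under control RNA scaling, which lowers all ALCAM+ signals alike. Fen1, the nuclease that trims Okazaki fragments, gave 641.6, 602.3 and 2925, and Lig1, the ligase that joins them, 278.2, 556.8 and 2272.5. Fen1 was 4.56-fold and 4.86-fold lower in ALCAM+ and Sca-1+ cells, and Lig1 8.17-fold and 4.08-fold.

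The genes of nucleotide supply had the largest median difference of the 8 roles in both comparisons, -3.36 in ALCAM+ and -3.21 in Sca-1+ cells over the 4 that were measured. Rrm2, the S-phase subunit of ribonucleotide reductase, gave 362.5 (ALCAM+), 373.9 (Sca-1+) and 6296 (marker-negative), 17.4-fold and 16.8-fold lower. Tk1, the S-phase thymidine kinase, gave 6.5, 46.4 and 1457, at least 19.3-fold lower in both. These genes were near or below the floor, or low, in both marker-positive populations and high in marker-negative cells. Rrm1, the large reductase subunit, gave 634.2, 826.0 and 3177, and Dut, which removes dUTP from the nucleotide pool, gave 493.1, 588.7 and 2998. Tyms, thymidylate synthase, was below the floor on each array with 29.4, 32.5 and 37.4, and its other 3 probe sets were too, so it has no usable value here.

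Ccne1 and Ccne2 encode the cyclins that drive entry into S phase. Ccne1 gave 273.8 (ALCAM+), 250.4 (Sca-1+) and 2242 (marker-negative), and Ccne2 129.5, 104.7 and 657.3. Uhrf1, which carries DNA methylation through replication, gave 110.1, 80.9 and 845.8. The marker-positive populations were close to each other in these 3 genes and 5.08-fold to 10.5-fold below marker-negative cells. E2f1, a transcription factor of the G1/S programme, differed from them, with 67.3 (ALCAM+), 228.8 (Sca-1+) and 337.6 (marker-negative). Sca-1+ cells were within 1.48-fold of marker-negative cells for E2f1, and ALCAM+ cells at least 4.48-fold lower.

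**Figure D3:**
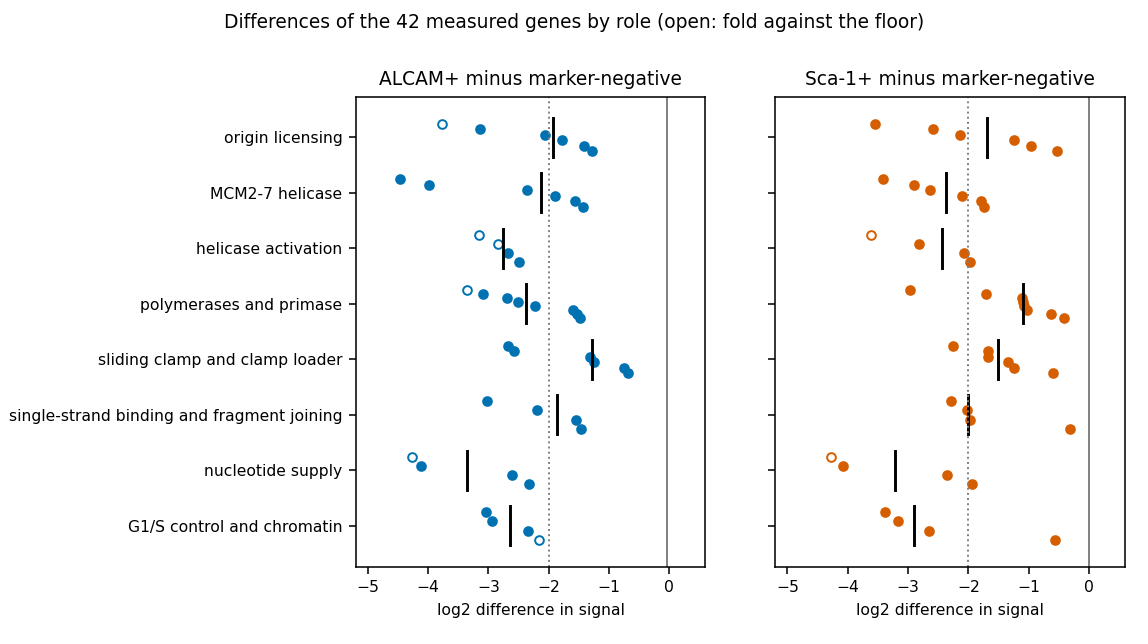
Log2 difference in signal from marker-negative cells (x axis) for the 42 measured genes by role (y axis), ALCAM+ on the left and Sca-1+ on the right; bars are role medians, open points are folds against the floor, the dotted line is 4-fold and the grey line the median of all measured genes. Polymerase and primase genes have a median of -2.37 in ALCAM+ and -1.09 in Sca-1+ cells, while nucleotide supply genes have -3.36 and -3.21.

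Other probe sets of the same genes pointed the same way. Of 35 further probe sets above the floor, from 27 of the genes, 34 were lower in ALCAM+ cells relative to marker-negative ones and 1 showed no difference. For 7 of the 35 both marker-positive signals were under the floor. These 7 passed through marker-negative cells alone and could only be lower, so their direction adds nothing. Against marker-negative cells 34 of 35 were lower in Sca-1+ cells too, and 1, the dimmest of Rfc1, was higher with 89.0 against 44.8. Their medians of -1.91 and -1.94 on the log2 scale were nearer 0 than that of the brightest probe sets in ALCAM+ cells and close to it in Sca-1+ cells. At least 4-fold lower were 15 of 35 in ALCAM+ and 16 of 35 in Sca-1+ cells. The brightest and second probe sets were compared for 4127 genes where both exceeded the floor on all 3 arrays. They disagreed with an SD of 0.54 (ALCAM+) and 0.67 (Sca-1+) log2 units for these comparisons. This SD comes from probe sets read on the same arrays and holds no variation between arrays, sorts or mice. It does not cover members at or below the floor. For ALCAM+ against Sca-1+ that SD was 0.74.

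ALCAM+ cells were also compared with Sca-1+ cells, which gives the difference of the comparisons above and no independent data. No member differed 4-fold, 0 of 42, where 9.85% of all measured genes did in either direction. The median log2 difference of the 42 was -0.39, against -0.01 over all measured genes. At least 2-fold lower in ALCAM+ cells were 11 members, and 0 were 2-fold higher, where 15.8% and 11.2% of all measured genes were. The 11 were Cdc6, Prim2, E2f1, Pola1, Prim1, Rpa1, Pola2, Mcm3, Pold2, Mcm5 and Lig1, from 3.09-fold (Cdc6, at least) down to just over 2-fold (Lig1).

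Roles differed in this comparison. All 8 polymerase and primase genes were lower in ALCAM+ than in Sca-1+ cells, with a median of -1.13 and a range from -1.61 for Prim2 to -0.40 for Pole. The 3 further probe sets above the floor in this role, of Prim1, Prim2 and Pold1, were lower too. Scaling on control RNAs moved the median of all measured genes in this comparison to -0.82 (poly-A) and -0.74 (hybridization), and relative to that median 7 of the 8 were lower with the former and 8 with the latter. With the floor raised to the 75th percentile 6 were lower and 2 had no difference, both signals lying under that floor. Helicase genes went both ways, Mcm3 at -1.09 and Mcm5 at -1.06 against Mcm4 at 0.55 and Mcm6 at 0.29. The other 4 probe sets of Mcm3 ran from -0.48 to 0, so its brightest probe set shows the largest difference of the 5. In all, 27 members were lower in ALCAM+ cells, 14 higher and Tk1 under the floor in both. These signs hold for the deposited scale only, since the control RNA scalings shift all genes one way and leave Mcm10 alone above 0. The members' median moved with all genes, to -1.19 and -1.11, and its difference from the all-gene median was -0.38 as deposited and -0.37 under either scaling.

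**Figure D4:**
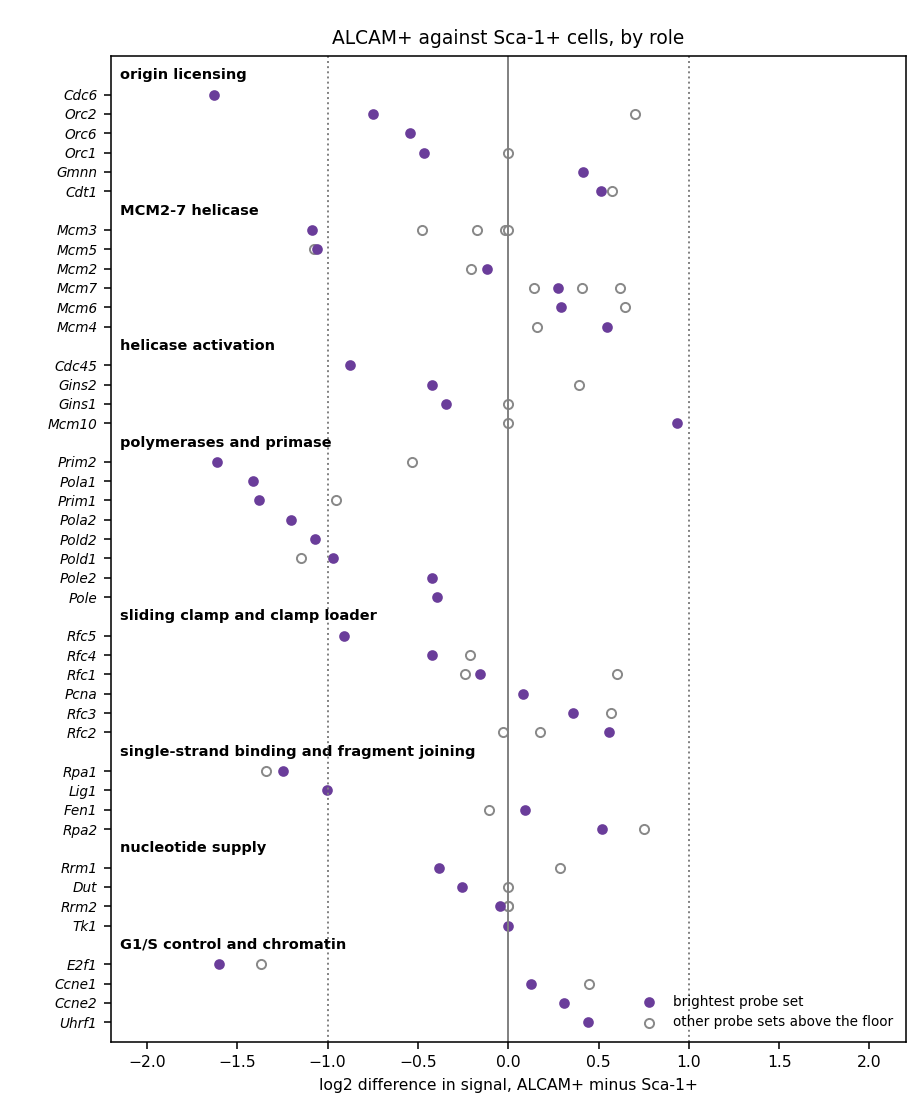
Log2 difference in signal, ALCAM+ minus Sca-1+ (x axis), for the 42 measured genes by role; filled points are brightest probe sets, open points other probe sets above the floor, dotted lines mark 2-fold. The 8 polymerase and primase genes lie between -1.61 and -0.40, whereas the helicase genes run from -1.09 to 0.55. Signs refer to the deposited scale, since scaling on control RNAs shifts the median of all genes to -0.82 or -0.74 and with it all members above 0 but Mcm10.

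Values of partner subunits and related enzymes are given for comparison; the pairs were chosen after their values had been seen, so they illustrate and support nothing. Rrm2b, the small reductase subunit made outside S phase, gave 474.7 (ALCAM+), 611.3 (Sca-1+) and 618.5 (marker-negative), against the 17.4-fold and 16.8-fold of Rrm2. Tk2, the mitochondrial thymidine kinase, gave 116.1, 448.9 and 201.6, so it was highest in Sca-1+ cells. The S-phase enzyme of each pair was high in marker-negative cells alone, whereas its counterpart was not.

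Further such values came from the origin, GINS and polymerase complexes. Orc3, Orc4 and Orc5 had log2 differences of ALCAM+ from marker-negative cells of -0.11, 0.40 and -0.79, against -1.42, -1.28 and -1.79 for Orc1, Orc2 and Orc6. Gins3 and Gins4 had -0.22 and -0.36, against -3.16 (Gins1, at the floor) and -2.49 (Gins2). Small polymerase epsilon subunits had -0.15 (Pole3) and -0.22 (Pole4), against -3.36 (Pole, at the floor) and -1.54 (Pole2). In Sca-1+ cells Pole3 and Pole4 were lower too, with -1.02 and -1.66, against -2.97 (Pole) and -1.11 (Pole2). Of polymerase delta, Pold3 had -1.42 in ALCAM+ and -1.03 in Sca-1+ cells, against -1.59 and -0.62 for Pold1. Pold4 had 0.66 and 0.40, against -1.48 and -0.42 for Pold2. Partner subunits were thus not flat throughout.

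Further replication genes, not among the 43, had a smaller median difference. The 43 and these genes were chosen with earlier results of these data known, so the gap is description only. Of 39 named ones, 11 were at least 4-fold lower in ALCAM+ cells relative to marker-negative ones and 0 higher, with a median of -1.29. In Sca-1+ cells these counts were 11 and 0, with a median of -1.19. The shares of all measured genes that much lower were 2.67% and 4.71%. For 5 of the 39 both marker-positive signals were under the floor, so they could only be lower. The largest differences were those of Top2a, the topoisomerase that untangles copied DNA, with 301.0 (ALCAM+), 116.5 (Sca-1+) and 3299 (marker-negative). Asf1b, a histone chaperone, gave 150.6, 85.4 and 1057, and Dbf4, the activator of the Cdc7 kinase that fires origins, 288.1, 88.2 and 1072.5. Dtl, which targets Cdt1 for destruction, gave 54.8, 91.1 and 803. Each of these 4 genes was highest in marker-negative cells.

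Other genes of nucleotide supply, also listed with earlier results of these data known, differed less. Of 20, 2 were at least 4-fold lower in ALCAM+ and 2 in Sca-1+ cells, with 0 higher and medians of -0.67 and -0.46. The shares over all measured genes were 2.67% and 4.71%. Dck, a deoxynucleoside salvage kinase, gave 450.1, 685.6 and 2611.5, and Mthfd1, a folate enzyme, 741.3, 1285 and 3996, and these were the 2 that passed in ALCAM+ cells. The 2 in Sca-1+ cells were Dctd, a deaminase of deoxycytidine monophosphate, with 144.1, 51.2 and 405.1, and Mthfd2, a mitochondrial folate enzyme, with 1237, 427.4 and 1825. Among 22 G1/S control genes, with medians of -0.96 and -0.78, 6 were lower in ALCAM+ and 5 in Sca-1+ cells, against the same shares. They were led by Ccna2, the cyclin of S and G2 phase, with 73.7, 69.8 and 2187.5, and by E2f8, a repressor of the E2F family, with 69.6, 6.4 and 1089. Both, like 4 of the 22 in all, were under the floor in the marker-positive populations and could only be lower. Cdk6, a G1 kinase gene, gave 1554, 465.1 and 6569.

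Of 41 named mitosis genes, 40 were lower in ALCAM+ and 39 in Sca-1+ cells than in the marker-negative population. For 14 of the 41 this direction was fixed, as both marker-positive signals were under the floor. No test of the list's gap from the replication genes is possible with 1 array per population. At least 4-fold lower were 31 in ALCAM+ cells and 33 in Sca-1+ cells, with 0 higher and medians of -2.96 and -3.16. Of all measured genes 2.67% and 4.71% were that much lower. Mki67, the Ki-67 antigen gene, gave 269.1, 203.8 and 6858, and Cdk1, the mitotic kinase, 172.3, 7.5 and 1794. Between ALCAM+ and Sca-1+ cells the median of the mitosis list was 0, against -0.39 for the replication genes. Of the 41, 14 lay under the floor in both populations and count as 0, while 19 were higher and 8 lower in ALCAM+ cells. Of the replication genes 14 were higher and 27 lower, and the median of all measured genes was -0.01. These signs refer to the deposited scale.

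**Figure D5:**
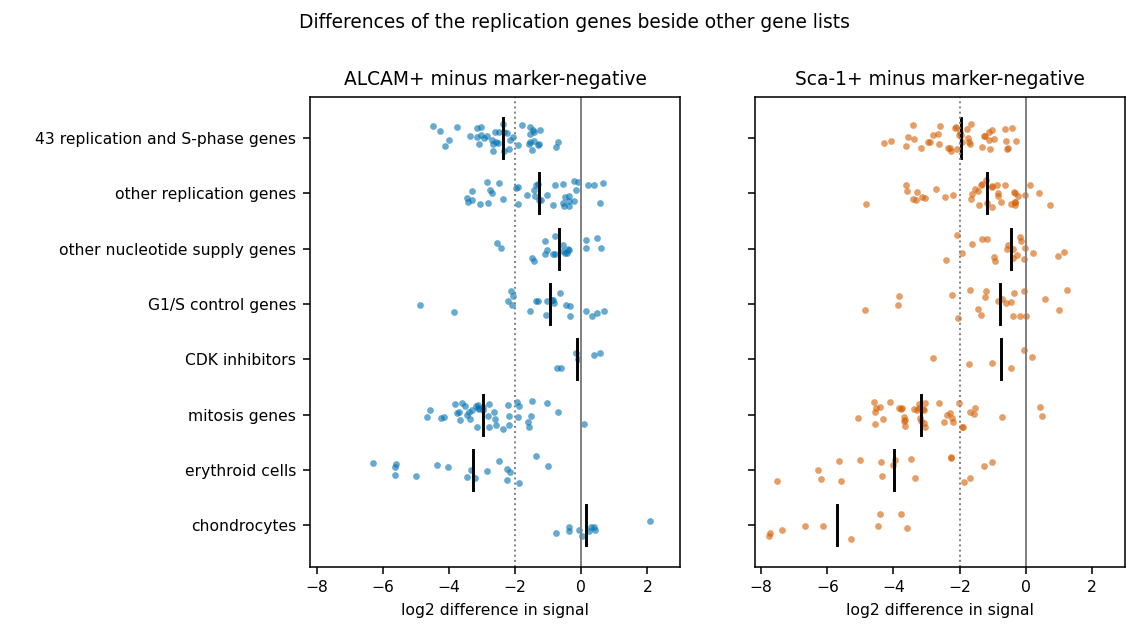
Log2 difference from marker-negative cells (x axis), ALCAM+ left and Sca-1+ right, for the measured genes of 8 lists (y axis); points are genes, jittered vertically, bars are medians and the dotted line is 4-fold. The mitosis genes have medians of -2.96 and -3.16 and the replication genes -2.35 and -1.97, and chondrocyte genes differ from marker-negative cells in Sca-1+ (median -5.71) but hardly in ALCAM+ cells (0.13).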

How the data were processed

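Gene expression was measured on 3 Affymetrix arrays, 1 per sorted population, from total RNA amplified and biotin-labelled by the 2-cycle assay, per the labels' protocols. The deposited values are signal intensities, and the submitters' processing notes name MAS5 without a version. They had a 2% trimmed mean of 500 on each array and were not rescaled. This equalises total signal, so differences in RNA content between populations are lost, and 3'-biased amplification affects probe sets far from the transcript end. The number of arrays limits the precision.

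The annotation gave 1 symbol for 34945 of 45037 non-control probe sets and several for 932, and it did not list 9160. Annotation symbols were checked through Entrez identifiers of a RefSeq table (GRCm38.p6), which changed 0. Where a gene had several probe sets, the brightest by mean over the arrays stood for it. Signals were raised to a floor of 75.4, the pooled median (percentile 50), and turned to log2. A fold against a signal at or below the floor is a lower bound. Genes past the floor on any array count as measured (12643), and those at least 4-fold apart as called. Of the 43 members, 10 were represented by probe sets with the endings _s_at or _x_at, which can match related transcripts. Promoter windows came from RefSeq and were searched for exact letters. Scripts used Python 3.11.15, numpy 2.4.6 and pandas 2.3.3 and were tested on simulated data.

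The members and gene lists were chosen with earlier results of these data known. Named are the 43 members, for each related list up to 4 genes with the largest differences, and for marker lists the sorting genes and up to 3 with the highest signal; partner genes and single genes noted as such were chosen after their values were seen. Alternatives were quantile normalization, scaling on 24 poly-A or 18 hybridization control probe sets, floors at the 25th (21.1) and 75th (433.9) percentile, the mean of all probe sets, the second brightest probe set, thresholds of 2-fold and 8-fold and, chosen after seeing the data, leaving out _s_at and _x_at probe sets.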

Additional observations from a re-analysis of the deposited data

How the results depend on the processing

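Under the 8 other settings of scale, floor and probe set, every non-zero difference of a member from marker-negative cells stayed negative, 319 of 334 values in ALCAM+ and 319 of 334 in Sca-1+ cells, the other 15 of each being under the floor. Counts at least 4-fold lower in ALCAM+ cells, 27 of 42, became 12 of 39 with the floor at the 75th percentile. They became 17 of 42 with the mean of all probe sets and 10 of 27 with the second brightest probe set (fewer genes have one). The share of all measured genes that much lower went from 2.67% to 1.02%, 1.53% and 1.23% in these settings. At 8-fold 11 members were lower. No share of all genes was computed there, and it cannot exceed the 2.67% at 4-fold. The members' median moved from -2.35 to -1.51 with that floor, to -1.70 with the mean of all probe sets and to -2.96 under poly-A scaling. In Sca-1+ cells 20 of 42 became 11 of 39 with that floor, 11 of 27 with the second brightest probe set, 7 at 8-fold and 35 at 2-fold. The share of all measured genes 4-fold lower went from 4.71% to 2.65% with that floor and 3.30% with the second brightest probe set. The 8-fold share was not computed here either and cannot exceed 4.71%. At 2-fold 1606 of all 12643 measured genes were lower in Sca-1+ cells. Scaling on poly-A and hybridization controls raised the ALCAM+ count to 37 and 33 of 42 and lowered the Sca-1+ count to 15 and 14. Of all genes 5.18% and 4.38% were then 4-fold lower in ALCAM+ cells, and 4.12% and 4.02% in Sca-1+ cells. Between ALCAM+ and Sca-1+ cells the count of 0 became 6 under poly-A scaling (median -1.19) and 4 under hybridization control scaling. All of these members were lower, where 12.3% and 11.3% of all genes were 4-fold lower and 2.12% and 2.26% higher. With the floor at the 25th percentile the count was 1, a lower one, where 6.12% of all genes were lower and 4.38% higher. At 2-fold it was 11, all lower, where 15.8% of all genes were lower and 11.2% higher. The raised floor shortens any difference of a dim gene by construction; the cause of the other shifts was not tested. Over all 8 settings the Sca-1+ median ran from -2.03 to -1.34, the latter with the floor at the 75th percentile, and that of ALCAM+ against Sca-1+ from -1.19 to 0. No paired analysis was possible because each population has 1 array. Dim members, with 7 at or below the floor in ALCAM+ and 3 in Sca-1+ cells, have lower bounds there.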

Other observations

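Inhibitors of cyclin-dependent kinases hold cells out of S phase and were also listed with earlier results of these data known. They had smaller median differences than the replication genes. Of 6 measured ones 0 were 4-fold apart between ALCAM+ and marker-negative cells, with a median log2 difference of -0.13, where 2.67% of all measured genes were lower and 2.01% higher by that rule. In Sca-1+ cells 1 of the 6 was at least 4-fold lower and 3 at least 2-fold lower, with a median of -0.74. Cdkn1c, the p57 gene, gave 12216 (ALCAM+), 1325 (Sca-1+) and 9335 (marker-negative). It was within 1.31-fold between ALCAM+ and marker-negative cells, where the replication genes differed most, and 7.05-fold lower in Sca-1+ than marker-negative cells. Cdkn2d gave 2041, 669.2 and 2196, with the same order of Sca-1+ against the rest. Cdkn1a, the p21 gene, was bright on each array with 22475, 14456 and 15060.3. Ccnd2, a G1 cyclin gene named after its values were seen, was highest in Sca-1+ cells, with 5386 against 1821 in ALCAM+ and 2283 in marker-negative cells.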
